A study of Mus musculus with 6 samples.

Results

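The genes described here are the main alpha subunits of the hypoxia-inducible factor (HIF) and the enzymes and adaptor that tie HIF to oxygen. They are Hif1a and Epas1, which encode the main HIF-alpha proteins, Egln1, Egln2 and Egln3, which encode the prolyl hydroxylases, Vhl, which encodes the recognition subunit of the ubiquitin ligase, and Hif1an, which encodes the asparaginyl hydroxylase FIH. The 7 genes were chosen by name, by a rule that uses no measured value but was written with earlier results of these data known, and all 7 were among the 13595 genes of the deposited table.

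The samples were 6 poly(A) RNA-seq libraries of primary CD31-positive cells from the livers of C57BL6/J mice aged 4 weeks, selected on the endothelial surface protein encoded by Pecam1 and grown in culture. Every library came from cells given 100 µM indoxyl sulfate, a tryptophan metabolite that activates the aryl hydrocarbon receptor, with hypoxia and nutrient deprivation for 6 hours. The groups were 3 libraries labelled male and 3 labelled female, each numbered 4, 5 and 6, and the study asked how this response differs by sex. Vehicle-treated cells and cells kept in normal oxygen were not analysed here, so no value below is a response to hypoxia. The labels do not say whether the replicates were separate mice, isolations or wells, and the p-values measure only the spread between these libraries.

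The HIF-alpha proteins are made continuously and, when oxygen is present, are hydroxylated on prolines by the EGLN enzymes. The VHL protein binds the hydroxylated form and directs it to degradation, while FIH hydroxylates an asparagine that then keeps the coactivators p300 and CBP away. When oxygen is low these reactions slow and HIF-alpha pairs with ARNT. The pair activates genes of glycolysis, angiogenesis and pH control, and also Egln1 and Egln3 themselves. In endothelial cells Epas1 is characteristically abundant. This control acts on protein, whereas the values here are levels of mRNA.

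Values are normalized read counts as the authors deposited them. The whole reads behind them came to between 22303270 and 31189363 per library, and no member had fewer than 380 reads in any library. The 3 libraries labelled female held Xist at 286 ± 46.7 (SD, n = 3) against 0.323 ± 0.176 (SD, n = 3) in those labelled male. They also held the Y-linked genes: Ddx3y stood at 52.1 ± 4.93 against 57.0 ± 16.8 (SD, n = 3 each) and Kdm5d at 19.1 ± 1.61 against 34.8 ± 3.61 (SD, n = 3 each). The Y-linked transcripts go against the female label, and the groups are therefore called by their labels throughout. Male replicate 4 stood apart from the other libraries of its group, with a chi-square per gene of 43.6 and 45.4 against replicates 5 and 6, which differed from each other by 5.98. The labels name no batch, and a batch that followed the labelled sex cannot be told apart from it.

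Between the groups, 69.3% of the 12568 genes tested differed at a limma adjusted p under 0.05 (Benjamini-Hochberg over all tested genes), 34.6% lower and 34.6% higher in the libraries labelled female, and 74.1% had groups that did not overlap. All 7 members passed the filter on low values and were tested. Of these, 5 were lower in the libraries labelled female (Hif1a, Epas1, Egln1, Egln3 and Vhl), 1 was higher (Hif1an) and 1 was not called (Egln2). The groups did not overlap for 6 of the 7. With a share called as high as 69.3% in the whole table, the number of members called is read beside the sizes of the differences. The median log2 difference, female minus male, was -2.02 over the members and 0.01 over all tested genes, a description of genes that were picked with results known. A log2 difference of -2 or lower was found for 4 members and for 503 of the tested genes (4.00%). Epas1 and Egln3 lay close to this cut. They reached -1.97 and -1.95 with 1 library left out, and -1.86 and -1.94 under other settings with all libraries. In the authors' deposited table, 25.8% of all genes had a false discovery rate under 0.05, and the same 6 members were among them.

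**Figure D1:**
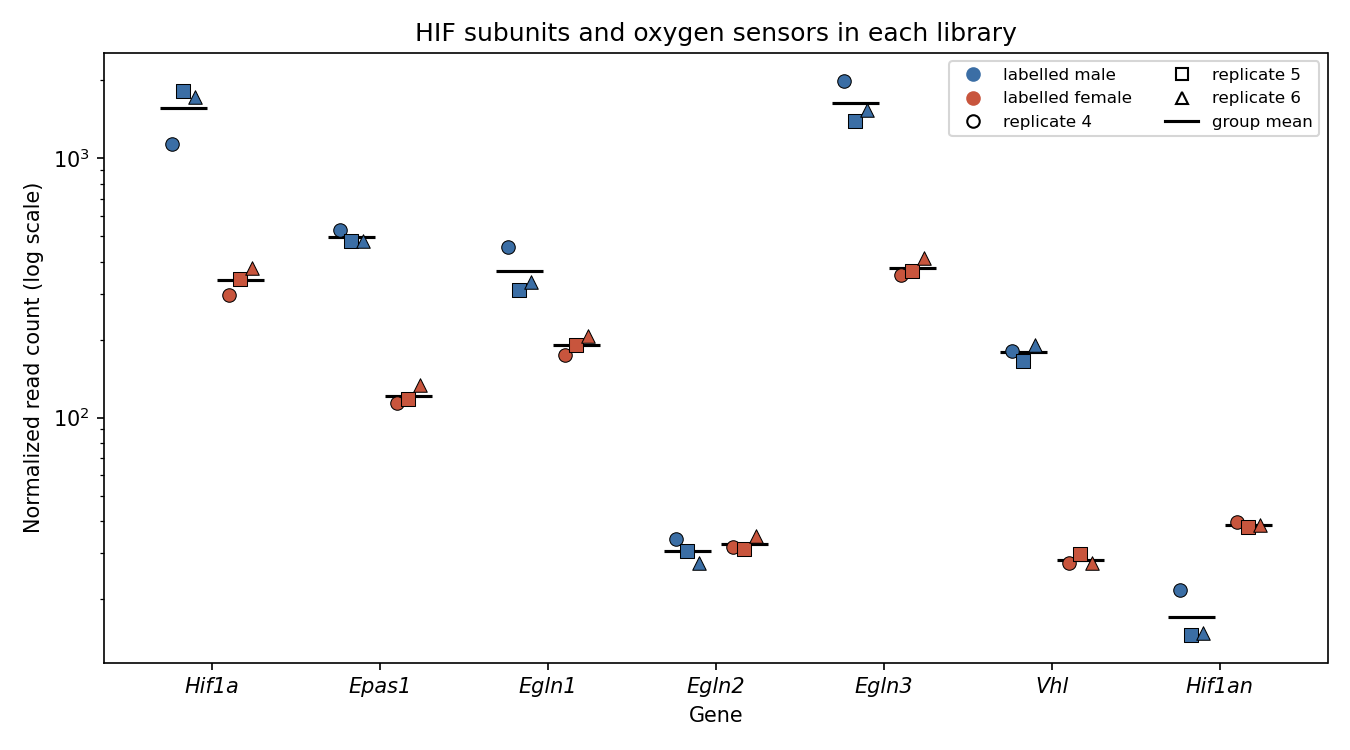
Normalized read count (log axis) of the 7 members in each of the 6 libraries; blue points are libraries labelled male, red points libraries labelled female, the shape gives the replicate number and the bar the mean of 3 libraries. Hif1a, Epas1, Egln1, Egln3 and Vhl sit lower in the libraries labelled female, Hif1an sits higher, and the groups overlap for Egln2 alone.

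For 6 of the 7 members a RefSeq promoter window, 250 bases before to 50 bases after the start site on GRCm38.p6, was at hand, with 2 windows for Egln2. Epas1 was not matched. The core sequence that HIF recognizes is read here as the letters ACGTG or GCGTG on either strand. Among all 32851 windows of this length, 19.6% held ACGTG, 32.4% held GCGTG and 43.8% held at least one of them. ACGTG was found in the windows of Hif1a, Egln1, Egln2 and Egln3, and neither sequence in those of Vhl and Hif1an. The stretches below show the letters around an ACGTG in the 4 genes that have it, because Egln1 and Egln3 are known HIF targets and the others allow a comparison. They read 5′ to 3′ on the gene's strand, with the motif in capitals. Where the motif is read on both strands at overlapping positions it gives CACGTG, as in the first stretch of Hif1a.
Hif1a, chr12:73907720-73907749, plus strand: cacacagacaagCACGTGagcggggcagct
Hif1a, chr12:73907785-73907813, plus strand: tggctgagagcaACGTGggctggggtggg
Egln1, chr8:124949306-124949334, minus strand: gggccgtggtgtACGTGcagcgcgcgcgg
Egln2, chr7:27166834-27166862, minus strand: agcctcctgtcaACGTGcggttcgcgcac
Egln3, chr12:54204087-54204115, minus strand: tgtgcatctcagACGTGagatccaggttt
Counting from the start site, the motif began at -134 and -70 on the gene's strand in Hif1a, at -68 in Egln1, at -48 and -3 in Egln2 and at -229 in Egln3. The motif at -134 in Hif1a and that at -3 in Egln2 each overlapped one on the other strand, at -135 and -4, and are both CACGTG. Egln1 also held GCGTG at -126. In its first window Egln2 held GCGTG at -151 and -137 on the gene's strand and at -34 on the other, and in its second window at -116. Among the 4 genes with the motif, Hif1a, Egln1 and Egln3 were lower in the libraries labelled female and Egln2 was not called. Vhl and Hif1an, without it in these windows, lay at the opposite ends of the differences. These matches are descriptions of letters and were not tested for binding.

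Hif1a, on chromosome 12, encodes the alpha subunit found in most tissues. Its normalized read count was 1141, 1826 and 1729 in male replicates 4, 5 and 6 and 298, 341 and 379 in female replicates 4, 5 and 6. Each library labelled male was above each labelled female, and male replicate 4 was the lowest of its group, at 0.642 of the mean of the other 2. The group means were 339 ± 40.8 and 1565 ± 370 (SD, n = 3 each), so that the libraries labelled female held 21.7% of the level of those labelled male. On the log2(value + 1) scale the difference was -2.18 (SE 0.17, 95% interval -2.58 to -1.78, limma adjusted p = 1.03e-05), and 95.4% of tested genes differed by less in absolute size. In the annotation, 5.60% of Hif1a's exon bases overlap the antisense gene Gm15283 and 2.51% overlap Gm49321, neither of which has a row in the table. Gm49321 lies on the same strand as Hif1a, so strand would not separate the 2. For Gm15283 the sources used here do not state whether counting used strand. Reads from those overlaps therefore cannot be assigned.

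Epas1, on chromosome 17, encodes the other main alpha subunit, known for its place in endothelial and renal cells. It stood at 529, 479 and 480 in male replicates 4, 5 and 6 and at 114, 117 and 133 in the female ones. The groups were well separated and the male libraries lay closer together than for Hif1a. The means were 122 ± 10.1 and 496 ± 28.9 (SD, n = 3 each), or 24.5% of the male level. The log2 difference was -2.02 (SE 0.08, 95% interval -2.20 to -1.85, limma adjusted p = 1.90e-07).

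Both of these alpha subunits were lower, and their balance was compared within each library, without Hif3a, which encodes a further alpha subunit but is not among the 7 genes and is given with the partner subunits. Per kilobase of the longest coding transcript, Hif1a made up 71.6%, 81.7% and 80.8% of the summed Hif1a and Epas1 level in male replicates 4, 5 and 6. The same share was 75.3%, 77.2% and 76.9% in female replicates 4, 5 and 6. All female shares lay within the male range, which male replicate 4 opened at its lower end. The within-library log2 ratio of Hif1a to Epas1 was 1.48 ± 0.0836 in the libraries labelled female and 1.63 ± 0.453 in those labelled male (SD, n = 3 each). The difference of -0.15 was smaller than the spread of the male libraries (two-sided exact permutation test, p = 0.6, with 0.1 the smallest value that 3 against 3 allows). This value rested on single male libraries. Without male replicate 4 the difference was -0.41 and the groups no longer overlapped (two-sided exact permutation test, p = 0.1, the smallest possible), whereas it was -0.0018 without male replicate 5 and -0.042 without male replicate 6 (p = 1.0 each in the same exact test).

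Among the prolyl hydroxylases, Egln3 (chromosome 12), an enzyme known to be strongly induced by hypoxia, was the most abundant per kilobase. Its normalized read count was 1995, 1401 and 1532 in male replicates 4, 5 and 6 and 354, 369 and 411 in the female ones. The lowest male library was well above the highest female one, and male replicate 4 was the highest library. The female mean of 378 ± 29.6 was 23.0% of the male mean of 1643 ± 313 (SD, n = 3 each). The log2 difference was -2.10 (SE 0.13, 95% interval -2.40 to -1.81, limma adjusted p = 2.27e-06).

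Egln1, on chromosome 8, encodes the enzyme regarded as the principal oxygen sensor for HIF-alpha in normal oxygen. It stood at 457, 310 and 333 in male replicates 4, 5 and 6 and at 175, 191 and 205 in the female ones. The groups did not overlap, and male replicate 4 was again the highest, at 1.42 of the mean of replicates 5 and 6. The female mean of 190 ± 15.3 was 51.9% of the male mean of 367 ± 79.0 (SD, n = 3 each). The log2 difference of -0.92 (SE 0.14, 95% interval -1.24 to -0.61, limma adjusted p = 0.000406) was smaller than that of Egln3, and 76.8% of tested genes differed by less in absolute size.

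Egln2, on chromosome 7, encodes the hydroxylase that, unlike the other two, is not known as a hypoxia-induced gene. Its levels were 33.9, 30.4 and 27.5 in male replicates 4, 5 and 6 and 31.7, 31.0 and 34.9 in the female ones. The groups overlapped, and the highest and lowest male libraries bracketed 2 of the 3 female ones. The means were 32.6 ± 2.06 and 30.6 ± 3.19 (SD, n = 3 each), and the log2 difference of 0.09 (95% interval -0.13 to 0.31, limma adjusted p = 0.417) was not called. After a correction for GC content and transcript length, chosen after seeing the data, Egln2 was called higher by 0.47 (limma adjusted p = 0.00683). Its transcript has the highest GC content of the members, 62.2%.

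The prolyl hydroxylases therefore differed in their proportions. Per kilobase, Egln3 made up 84.0%, 83.9% and 84.5% of the summed level of the EGLN genes in male replicates 4, 5 and 6 and 67.6%, 67.1% and 67.7% in the female ones. Within each group these shares lay within 1 percentage point of each other, including male replicate 4. The Egln1 share was 25.2% ± 0.505 in the libraries labelled female against 13.9% ± 0.326 in those labelled male, and the Egln2 share was 7.35% ± 0.274 against 2.01% ± 0.263 (SD, n = 3 each). The within-library log2 ratio of Egln3 to Egln1, which no scaling of a library can alter, was 0.99 ± 0.0346 against 2.17 ± 0.0373 (SD, n = 3 each). The difference of -1.18 was far larger than the spread in either group, and the two-sided exact permutation test gave p = 0.1, the smallest value that 3 against 3 allows.

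**Figure D2:**
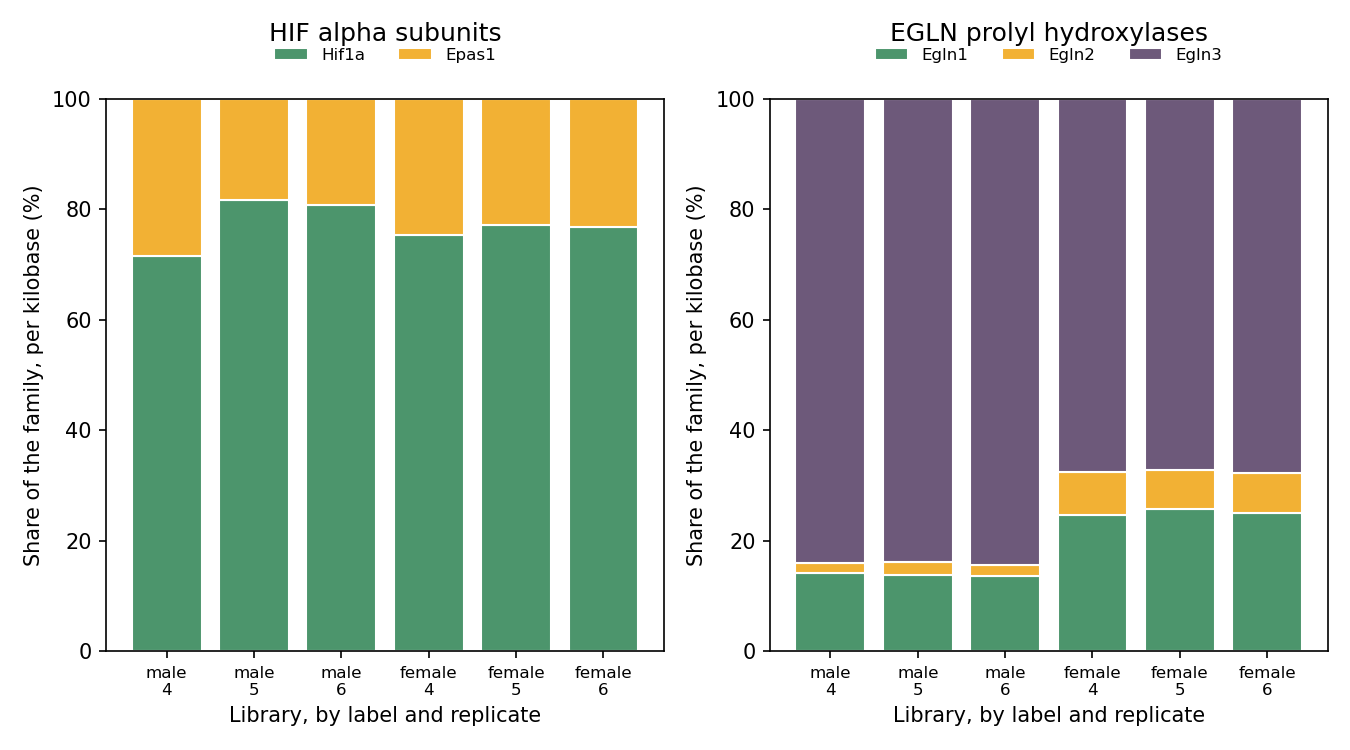
Share of each gene in its family in each library (percent of the summed normalized read count per kilobase of the longest coding transcript), for Hif1a and Epas1 (Hif3a is not included) on the left and the EGLN genes on the right. The Hif1a share overlaps between the groups, whereas Egln3 makes up 83.9% to 84.5% in the libraries labelled male and 67.1% to 67.7% in those labelled female.

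Vhl, on chromosome 6, showed the largest difference of the 7 members. Its normalized read count was 181, 165 and 190 in male replicates 4, 5 and 6 and 27.5, 29.8 and 27.5 in the female ones. The libraries within each group were close together, and male replicate 4 lay between the other 2. The female mean of 28.3 ± 1.32 was 15.8% of the male mean of 179 ± 12.5 (SD, n = 3 each). The log2 difference was -2.62 (SE 0.07, 95% interval -2.78 to -2.45, limma adjusted p = 4.83e-08), and 97.1% of tested genes differed by less in absolute size. In the authors' deposited table the signed fold change of Vhl was -6.31 with a false discovery rate of 1.05e-08, the lowest of the members.

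Hif1an, on chromosome 19, was the member with the opposite direction. It stood at 21.6, 14.5 and 14.8 in male replicates 4, 5 and 6 and at 39.6, 37.7 and 38.4 in the female ones. Every female library was above every male one, and male replicate 4 was the male library nearest to them. The female mean of 38.6 ± 0.953 was 2.28 times the male mean of 16.95 ± 4.03 (SD, n = 3 each), a log2 difference of 1.16 (SE 0.14, 95% interval 0.84 to 1.49, limma adjusted p = 0.000128). FIH hydroxylates HIF-alpha at a residue other than those the EGLN enzymes act on.

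In the authors' deposited table the other members had signed fold changes, female against male, of -4.61 for Hif1a, -4.08 for Epas1, -1.93 for Egln1, -4.34 for Egln3, 1.06 for Egln2 and 2.28 for Hif1an. The false discovery rates in the authors' deposited table were 0.00568, 0.00469, 0.0203, 4.89e-05, 0.855 and 0.00197 in the same order. For these 6 genes they were larger than the limma adjusted p-values, whereas that of Vhl was smaller.

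Per kilobase of transcript, the order of mean levels in the libraries labelled male was Egln3 (617), Hif1a (331), Egln1 (102), Epas1 (89.9), Vhl (63.9), Egln2 (14.5) and Hif1an (2.74). Egln1 and Epas1 overlapped in that order, from 86.2 to 127 and from 86.8 to 96.0, and no other neighbours did. In the libraries labelled female the order was Egln3 (142), Hif1a (71.9), Egln1 (53.0), Epas1 (22.0), Egln2 (15.5), Vhl (10.1) and Hif1an (6.23), with no overlap between neighbours. The order was the same apart from Vhl and Egln2, which changed places. Vhl was above Egln2 in each library labelled male and below it in each labelled female.

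Vhl acts as part of a complex with elongin B, elongin C, the scaffold cullin CUL2 and the RING protein RBX1. The complex is switched on by the modifier NEDD8. The genes of these partners differed far less than Vhl: 4 of 5 were higher in the libraries labelled female and 1 was lower, with a median log2 difference of 0.29. Of all tested genes 69.3% were called, 34.6% in each direction. The log2 difference was 0.54 for Elob, 0.38 for Eloc, 0.29 for Nedd8 and 0.25 for Cul2, with limma adjusted p-values of 0.000291, 0.00171, 0.00768 and 0.0277. Rbx1 was lower by a log2 difference of -0.37 (limma adjusted p = 0.000508). Rbx1 and Nedd8 also serve other cullin ligases. The call of Cul2 was lost without female replicate 5 or female replicate 6 and under the correction for GC content and length, with which Nedd8 was higher by 0.49.

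Arnt, which encodes the oxygen-independent partner of the alpha subunits, was lower at 70.6 ± 3.04 against 105 ± 6.45 (SD, n = 3 each), a log2 difference of -0.57 (limma adjusted p = 0.000116). Hif3a, whose product is an alpha subunit that can act as an inhibitor of HIF, was lower by -0.98 (limma adjusted p = 0.0110). Its levels were 62.1, 29.9 and 29.3 in male replicates 4, 5 and 6 and 17.6, 16.3 and 22.8 in the female ones, and without male replicate 4 the log2 difference was -0.63. Arnt2, the paralog of Arnt best known from neurons, had 30.1 against 34.0 and was not called (log2 difference -0.18, limma adjusted p = 0.170).

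The coactivators that FIH keeps from HIF-alpha were not called: Ep300 stood at 160 ± 10.7 against 148 ± 9.29 and Crebbp at 90.1 ± 2.99 against 102 ± 10.98 (SD, n = 3 each). Other settings did call them: Ep300 was higher by 0.16 without male replicate 4, by 0.20 with quantile normalization and by 0.18 with total-read scaling, and Crebbp was lower at -0.20 under the correction for GC content and length. Ncoa1, another coactivator, and Cited2, which competes with HIF-alpha for p300 and CBP, were lower by -0.74 and -0.45 (limma adjusted p = 9.26e-05 and 0.000172). Of 5 genes listed here, Cited4 was not matched. Among 9 other regulators of HIF-alpha stability, 2 were lower, 2 higher and 5 not called, with a median of 0.06. The lower ones were Siah2 (-0.75, limma adjusted p = 0.00387), a ubiquitin ligase that targets EGLN proteins, and Os9 (-0.66, limma adjusted p = 1.28e-05), which encodes a lectin of the endoplasmic reticulum. Siah1a and Senp1 were higher by 0.25 each, and both calls were lost when some single libraries were left out: without male replicate 5 or 6 or female replicate 4 or 6 for Siah1a, and without male replicate 5 or female replicate 5 or 6 for Senp1. Under the correction for GC content and length the call of Siah1a was also lost, and Cited2 (-0.22), Siah2 (-0.49) and Os9 (-0.41) were closer to 0 but still called (limma adjusted p = 0.00624, 0.0160 and 0.000136).

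Oxygen-dependent enzymes outside the EGLN family also moved in both directions. Ado, which encodes a thiol dioxygenase that senses oxygen on protein N-termini, was higher at 25.7 ± 0.933 against 15.5 ± 0.861 (SD, n = 3 each), a log2 difference of 0.69 (limma adjusted p = 0.000101). P4htm, which encodes a prolyl hydroxylase of the endoplasmic reticulum membrane, was lower at 0.866 ± 0.282 against 2.42 ± 0.258 (SD, n = 3 each), a log2 difference of -0.88 (limma adjusted p = 0.000613). The size for this low gene depended on the setting, from -0.58 under the GC and length correction to -1.51 with voom. Both genes had groups that did not overlap. Without the HIF targets described next, the lists of the pathway held 23 tested genes, of which 7 were higher, 8 lower and 8 not called, with a median of 0.05. Of all tested genes, 34.6% were higher and 34.6% lower, so these counts are near the shares of the whole table.

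**Figure D3:**
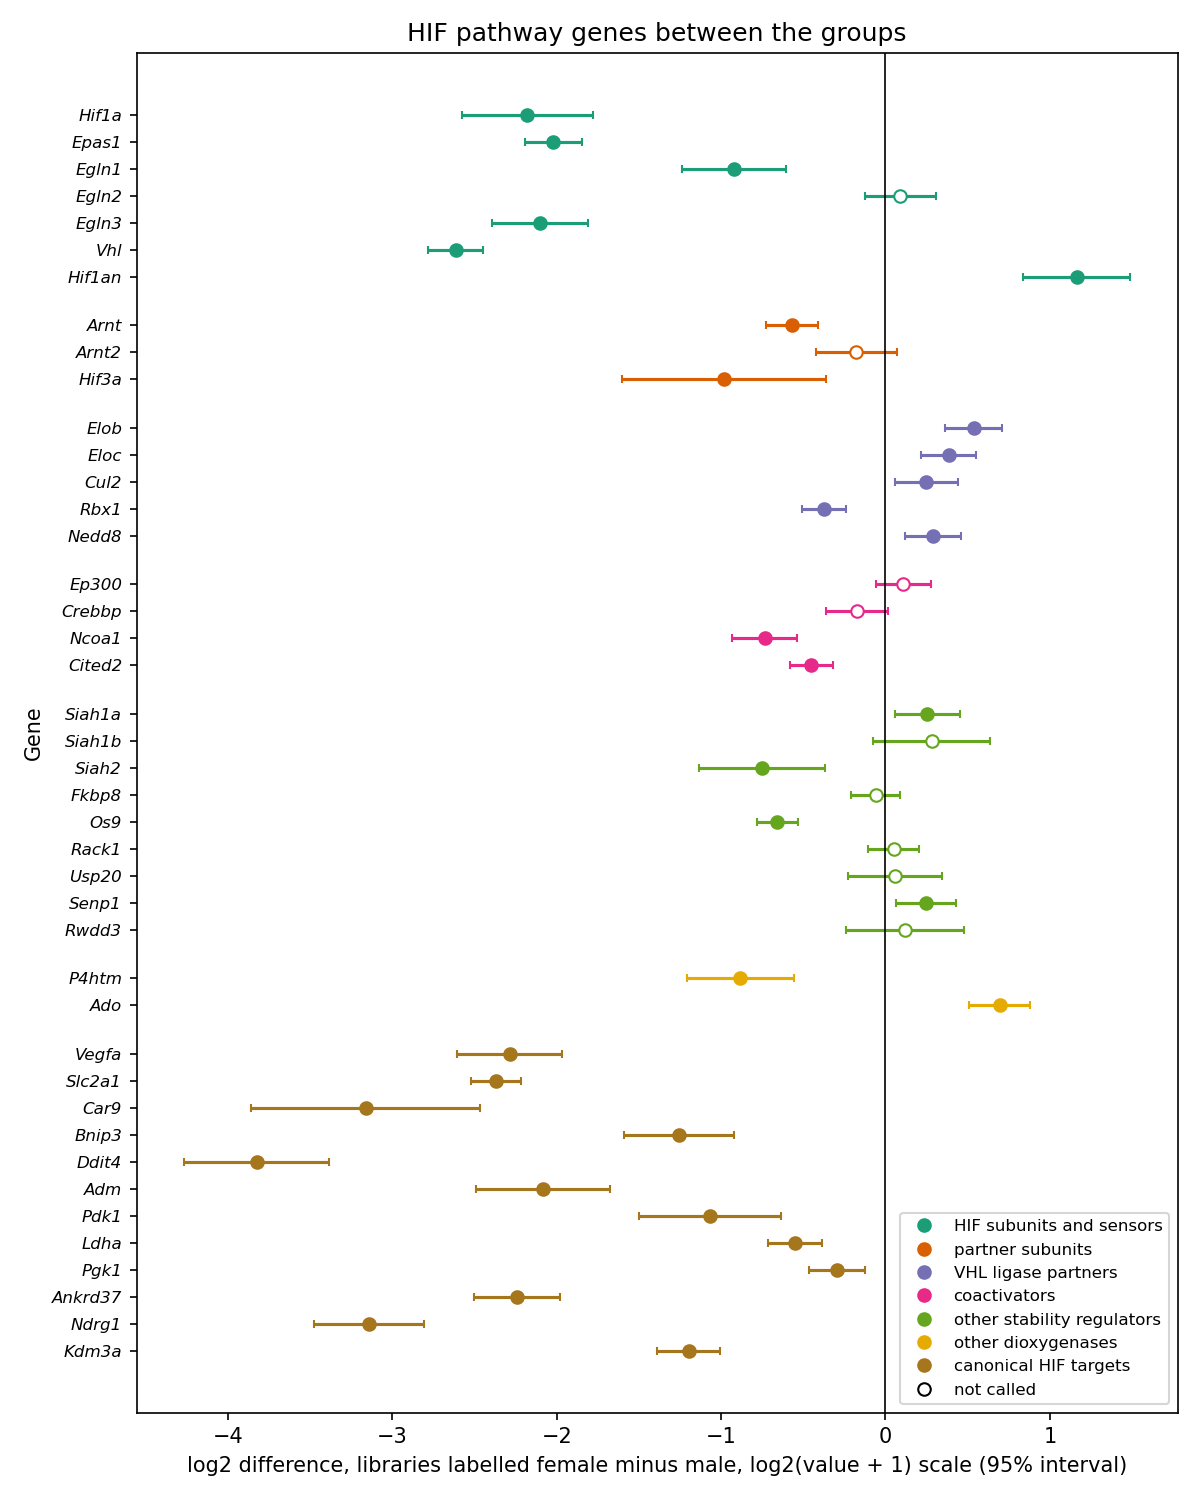
Difference between the groups on the log2(value + 1) scale, libraries labelled female minus male, with 95% limma intervals from 3 libraries a group, for the 7 members and the 35 genes of the pathway lists; open points were not called. The canonical HIF targets all lie left of 0, with a median of -2.16, whereas the VHL ligase partners lie between -0.37 and 0.54.

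Canonical transcriptional targets of HIF were lower in the libraries labelled female for 12 of 12 genes, beside 34.6% of all tested genes. Their median log2 difference was -2.16. This list was written with earlier results of these data known, and the direction of its genes is no independent evidence. The largest difference on the log2(value + 1) scale was that of Ddit4, an inhibitor of mTORC1 signalling, which stood at 788, 1288 and 1436 in male replicates 4, 5 and 6 and at 78.5, 79.7 and 78.6 in the female ones (log2 difference -3.83, limma adjusted p = 7.81e-07). Car9, the pH-regulating carbonic anhydrase, stood at 9.87, 22.2 and 24.7 against 1.41, 0.751 and 1.14 (log2 difference -3.16, limma adjusted p = 3.04e-05). By the ratio of group means the order was the other way round, with the male mean 17.2 times the female one for Car9 and 14.8 times for Ddit4. Ndrg1, a stress-response gene, had 1920 ± 378 against 215 ± 30.3, and Slc2a1, the glucose transporter GLUT1, had 1782 ± 116 against 343 ± 4.07 (SD, n = 3 each, male first). Their log2 differences were -3.14 and -2.37, with limma adjusted p-values of 5.06e-07 and 4.91e-08.

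The smallest differences in this list were those of glycolytic enzymes: -0.55 for Ldha and -0.30 for Pgk1 (limma adjusted p = 0.000191 and 0.00681). The members known to be HIF targets themselves, Egln3 (-2.10) and Egln1 (-0.92), lay within the range of these genes. No library was without the treatment, so these are differences in level under hypoxia and not in induction.

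**Figure D4:**
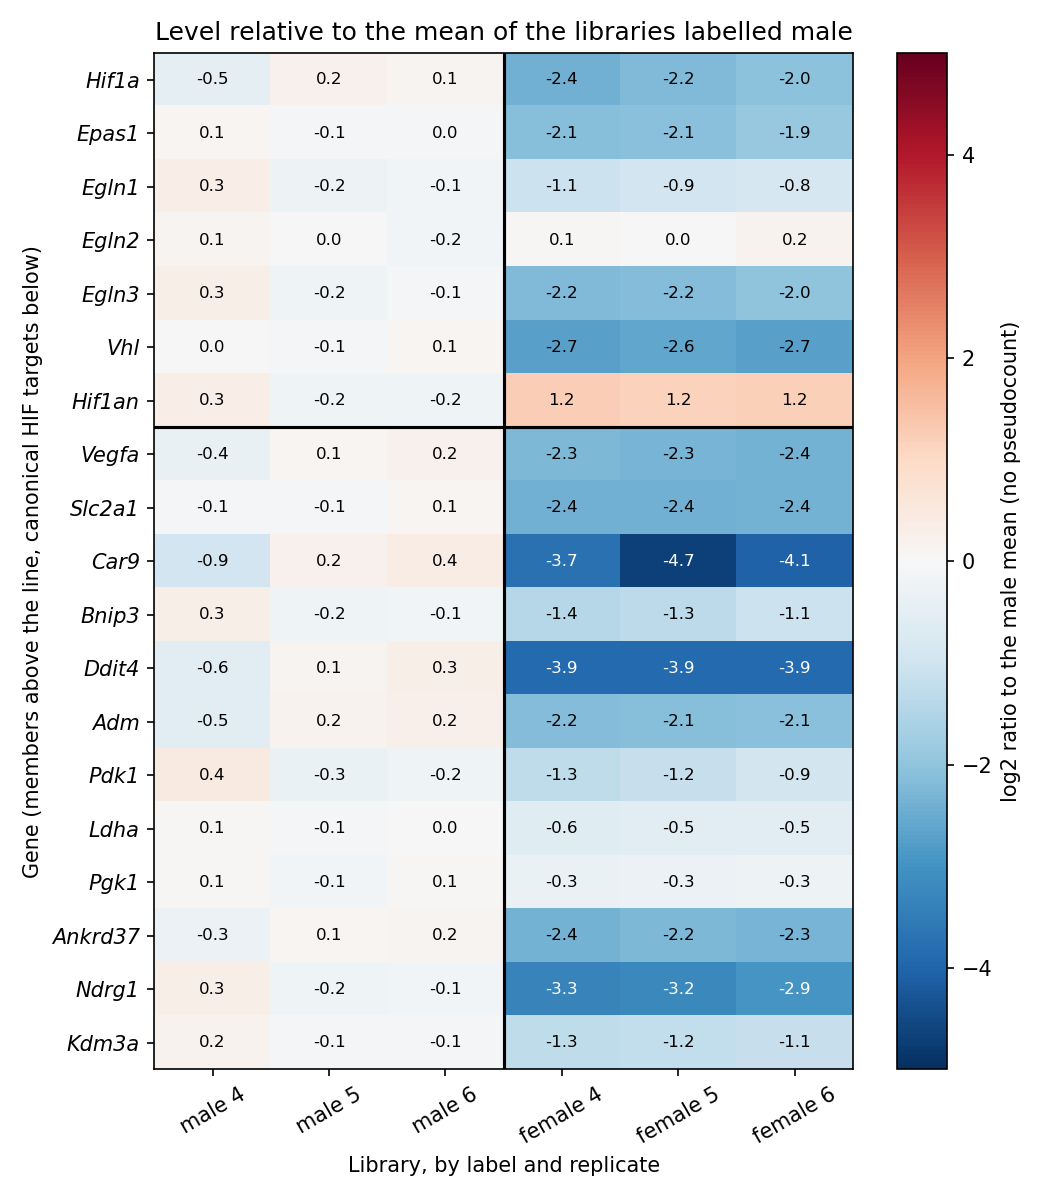
Log2 ratio of each library's normalized read count to the mean of the 3 libraries labelled male, with no pseudocount, for the 7 members (above the line) and 12 canonical HIF targets (below it). The libraries labelled female are darkest blue for Car9 and Ddit4 and red for Hif1an; male replicate 4 is below male replicates 5 and 6 for Hif1a, Vegfa, Car9, Ddit4, Adm and Ankrd37, between them for Vhl and Slc2a1, and above both for the other 11 genes.

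Cell type markers also differed between the groups, some lower and some higher in the libraries labelled female. The endothelial markers were detected in every library. In the libraries labelled female 8 of 10 were lower, beside 34.6% of all tested genes, 1 was higher (Eng) and 1 was not called (Kdr). Their summed levels were 1207 to 1263 against 2264 to 2372. Pecam1, the marker of the isolation, stood at 73.9 ± 0.540 against 407 ± 16.2, and Cdh5, the endothelial cadherin, at 387 ± 11.9 against 924 ± 5.58 (SD, n = 3 each). Kdr, the VEGF receptor usual in endothelium, was low in both groups at 2.95 ± 0.636 against 3.63 ± 0.392 (SD, n = 3 each). Of 6 sinusoidal endothelial markers, 3 (Stab2, Clec4g and Fcgr2b) were under the filter, 2 were lower and 1 was higher, with summed levels of 38.5 to 40.5 against 492 to 531. Lyve1 stood at 4.98 ± 0.566 against 498 ± 24.8 and Stab1 at 1.95 ± 0.306 against 15.7 ± 2.41, whereas Gata4 was higher at 32.1 ± 0.858 against 3.75 ± 0.0909 (SD, n = 3 each). In these bulk libraries, fewer cells of a type and less RNA per cell cannot be told apart.

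Of 11 fibroblast, stellate and mural markers, 2 were higher in the libraries labelled female (Acta2, at 1694 ± 187 against 78.6 ± 47.9, SD, n = 3 each, and Des), 8 were lower and 1 was not called, with summed levels of 2529 to 2902 against 2871 to 3660. Acta2 made up most of the female sum, and the lower genes included Col3a1 at 226 ± 18.9 against 1266 ± 249, Col1a2 at 335 ± 12.9 against 937 ± 132 and Pdgfrb at 14.3 ± 1.17 against 133 ± 3.76 (SD, n = 3 each). Of 4 cholangiocyte markers, Epcam was under the filter, Krt19 and Sox9 were lower and Krt7 was higher, with sums of 167 to 221 against 707 to 876. The macrophage markers summed to 13.2 to 15.7 against 7.51 to 9.99, with Adgre1 at 0 reads in every library. Hepatocyte markers summed to 0.0884 to 0.291 against 0.871 to 1.07, with Cyp3a11 at 0 reads in every library. A count of 0 allows a level of up to 0.106 to 0.142, depending on the library (3 reads, counting error only). None of 6 lymphocyte markers was matched to the table. The part of these cell types in the differences of the members was not tested.

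The level of Epas1 was set beside the endothelial markers within each library. The log2 ratio of Epas1 to the mean log2 level of the 10 markers was 2.43 ± 0.262 in the libraries labelled female and 2.61 ± 0.0975 in those labelled male (SD, n = 3 each). The groups overlapped, and the difference was -0.17 (two-sided exact permutation test, p = 0.5). It was -0.34 with a pseudocount of 1 and -0.31 without female replicate 6, where the same exact test gave p = 0.1, the smallest possible, and -0.052 without female replicate 4 (p = 1.0, exact). The direction depended on the marker: the difference was 0.43 with Pecam1 alone and -0.78 with Cdh5 alone, each without overlap between the groups and with p = 0.1 in the two-sided exact permutation test, the smallest possible. Epas1 thus fell between these markers in the size of its difference.

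The tested genes most like a member across the 6 libraries, by Pearson's r of log2(value + 1), were H2-K2, 6330403K07Rik and Serpina3m for Hif1a, Ctsc, Elk3 and Bcl9l for Epas1, and Cbx6, Kdm3a and Dapk1 for Egln3, each with r over 0.99. Many genes share the separation of the groups, which raises r: 17.6% of tested genes had r over 0.95 with Hif1a, 20.4% with Epas1 and 18.4% with Egln3. These correlations are descriptions over 6 libraries that fall into the study's groups.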

How the data were processed

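Poly(A) RNA-seq of 6 libraries was used, from 1 deposited table of 13595 genes. Bowtie2, RSEM, edgeR and the build mm39 are named in the submitters' processing notes, without roles. As deposited, the signal in each column is a read count scaled by 1 factor: in every column 100% of the values were whole multiples, within 0.01 read, of the value of 1 read, so that whole reads could be recovered. The deposited score is the authors' signed fold change, and the deposited p-value columns are their p and FDR (false discovery rate), as the file headers name them. Columns were matched to samples by title, and 0 were left without one.

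From the deposited values, limma 3.58.1 under R 4.3.3 was fitted with a trended prior variance to log2(value + 1) of the 12568 genes that reached 1 in 3 or more libraries, 3 labelled female against 3 labelled male, with no covariate and Benjamini-Hochberg adjustment over all of them at 0.05. This scale understates the change of low genes. Intervals are 95% intervals of the fit. Ratios within a library were compared by two-sided exact permutation tests. The model fits were tested on simulated data in which far fewer genes differed than here, so that test does not cover this setting. The count tests on recovered reads were edgeR 4.0.16 and DESeq2 1.42.0, as alternatives. The members and gene lists were chosen with earlier results of these data known. Genes were named by rule: the 7 members whatever their values, called genes of the pathway lists (up to 4 a list by size, and those needed to account for a count), Pecam1, Cdh5, the genes that check the labels, and for Hif1a, Epas1 and Egln3 the 3 genes of highest correlation. Ldha, Pgk1 and the other marker genes given with values fall outside it and were chosen after their values were seen.

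Transcript lengths and GC content came by symbol from GENCODE M21 (GRCm38). Chromosomes came by symbol from RefSeq, as did the promoter stretches (GRCm38.p6). As the notes name another build, no coordinates of the measurements are given. Table symbols that were older forms (such as Tceb1 for Eloc, Tceb2 for Elob, Gnb2l1 for Rack1 and Emr1 for Adgre1) were matched through RefSeq synonyms. Same-numbered libraries did not deviate together (correlations -0.09, -0.03 and -0.17 for numbers 4, 5 and 6), and the main comparison has no block.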

Additional observations from a re-analysis of the deposited data

How the results depend on the processing

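The alternatives were edgeR, DESeq2 and voom on recovered reads, RLE size factors, total-read scaling, quantile normalization, a pseudocount of 0.1, all genes unfiltered, only genes with 10 or more reads in each library, a fold-change threshold, a replicate block, each library left out in turn and, chosen after seeing the data, a correction for GC content and length. Leaving aside the fold-change threshold, 118 of 119 member values under them kept their direction and their side of the threshold, and the other is the call of Egln2 given above. Without 1 library at a time, Hif1a ranged from -2.39 to -2.05, Egln1 from -1.03 to -0.75, Vhl from -2.67 to -2.57 and Hif1an from 1.07 to 1.34. Requiring an absolute log2 difference of at least 1 left 2589 genes of 8704, 5 of 6 members (Egln1 was lost) and 10 of 27 pathway genes. With 1 library left out, between 7731 and 9496 genes were called. The replicate block gave 8314 genes, 6 members and 25 pathway genes, with Siah1a and Senp1 lost (limma adjusted p = 0.0596 and 0.0516), and the same-numbered libraries did not pair. The ratio of Epas1 to endothelial markers, -0.17 over 10 markers, was 0.43 with Pecam1 alone and -0.78 with Cdh5 alone. The ratio of Hif1a to Epas1 ranged from -0.41 to -0.0018 with 1 library left out. Of 713 values for the pathway genes, Pecam1, Cdh5 and the genes that check the labels, again without the fold-change threshold, 688 kept direction and side, 13 lost the call, 6 gained one and 6 changed sign. The last were of genes not called in the main comparison: Fkbp8 (0.0067 with quantile normalization, 0.016 with total-read scaling, 0.34 with the GC and length correction, where it was called at a limma adjusted p of 0.000351), Usp20 (-0.047 to 0.15 with 1 library left out, below 0 at -0.0031 without female replicate 5) and Ddx3y (-0.21 to 0.13, above 0 without male replicate 5). The cause was not tested. Of 458 values for the other tested markers, 457 kept direction and side, and Thy1 gained a call at 0.36 with the GC and length correction. Depth limits the genes at few reads, such as Rwdd3, Car9, P4htm and Erg, with 20, 17, 15 and 12 reads in their lowest library, and Lum, with 0.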

Other observations

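In male replicate 4 the members and targets did not move as 1 group. Against the mean of male replicates 5 and 6, Hif1a was at 0.642, while Egln3 was at 1.36, Egln1 at 1.42 and Hif1an at 1.48, and Vhl, Epas1 and Egln2 were at 1.02, 1.10 and 1.17. Among the 12 canonical targets, 5 were below both other male libraries (Car9 at 0.421, Ddit4 at 0.579, Adm at 0.604, Vegfa at 0.688 and Ankrd37 at 0.757). Above both were 6 (Pdk1 at 1.63, Bnip3 at 1.40, Ndrg1 at 1.38, Kdm3a at 1.20, Ldha at 1.08 and Pgk1 at 1.07), and Slc2a1 lay between them. Male replicates 5 and 6 were within 0.904 to 1.15 of each other over the members. This is a single library, so the split has no replicate and no test.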
